A study of Mus musculus with 15 samples.

Results

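The machinery that cuts nascent messenger RNA and adds its poly(A) tail was examined in mouse CD8+ T cells activated in vivo with antigen alone (Ag) or with antigen and costimulation (Ag+Costim). The set comprised 31 genes, chosen by name and role, of the 55536 genes in the count tables. They were 8 genes of the cleavage and polyadenylation specificity factor (CPSF) with its partners, 4 of the cleavage stimulation factor (CstF), 3 of cleavage factor I (CFIm), 2 of cleavage factor II (CFIIm), 6 poly(A) polymerases and poly(A)-binding proteins, 5 factors of the polymerase tail and of termination, and 3 of the CDK12 kinase group. The rule used no expression value, though the list was drawn up with earlier results of these data known.

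All cells came from OT-1 Tg donors, whose transgenic T cell receptor recognises the ovalbumin peptide SIINFEKL. The study's methods give the donors as C57BL/6J mice deficient in Rag1 or Rag2, which lack other lymphocytes, and the hosts as wild-type C57BL/6J mice, which keep their own. Both groups received the peptide after transfer. The Ag mice were also given rat IgG, whereas the Ag+Costim mice received agonist antibodies against CD134 (OX40) and CD137 (41BB), a pair of costimulatory receptors of activated T cells. Donor cells were sorted from spleen and lymph node on CD8, CD45.1, Vα2 and Vβ5. The labels place the collection at day 4 and the methods somewhat earlier. Each group had 5 libraries, which the study describes as individual biological replicates and counts as mice. Naive libraries were not analysed here.

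A pre-mRNA is cut a short way after its poly(A) signal, most often the hexamer AAUAAA. CPSF reads this signal and carries the cutting enzyme, CstF binds the downstream sequence, CFIm binds UGUA motifs upstream and favours distal sites, and CFIIm couples cutting to the end of transcription. Many genes hold several such sites, and the level of these factors is known to affect which is used in dividing and activated T cells. Cstf3 and Pcf11 themselves are known for conserved poly(A) sites inside an intron, whose use gives short transcripts in place of the full-length mRNA.

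The counts of a library summed to 59.6 to 449.4 M (mega-counts) in Ag and 332.3 to 639.1 M in Ag+Costim. They are estimates from read coverage, so these sums are not reads, and depth in reads was not known. The Ag libraries differed among themselves, with correlations of log2 CPM, the counts scaled per mega-count of the library, from 0.773 to 0.968 over 10 pairs against 0.956 to 0.961 within Ag+Costim, and no pair held the same values. Ag replicate 3 had the lowest sum of counts, and its 6 erythroid marker genes summed to 1103 CPM against 3.8 to 126 CPM elsewhere. The summed level of 28 cell cycle genes was 1903 and 2015 CPM in Ag replicates 1 and 4 and 9019 to 18100 CPM in the other 8 libraries. The 8 B cell markers summed to 955 to 1229 CPM in Ag replicates 1, 3 and 4 and to 531 to 784 CPM elsewhere, of which Cd79a and Ms4a1 were each at 17.2 to 93.3 CPM in those 3 Ag libraries and at or under 5.57 CPM elsewhere. Ighm made up most of each sum and overlapped, at 601.8 to 1038 CPM in those 3 libraries and 500.3 to 736.8 CPM elsewhere. Cd22 overlapped too, at 20.6 to 48.37 CPM and 12.61 to 22.54 CPM. Between 40441 and 51778 genes had a count in these 3 Ag libraries, against 20714 to 30340 in the other 7 libraries. Mitochondrially encoded genes held 1.77% to 1.96% of the counts in the same 3 libraries and 0.943% to 1.22% in the other 7. As TMM-scaled CPM, the scale of the other levels here, 15 of these genes did not divide the libraries in this way. They summed to 12610 CPM in Ag replicate 1, below the 13170 and 14700 CPM of Ag replicates 2 and 5. The 8 markers of CD8 T cells summed to 4312 to 8232 CPM, and Cd8a was at 346 to 679.7 CPM in every library.

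Annotated 3′ ends of 5 members are shown because these genes have more than 1 end and the counts below divide among them. Each line is the transcript strand, 5′ to 3′, from the GENCODE M21 transcripts (GRCm38), with the poly(A) signal AATAAA or ATTAAA in capitals where the last 50 bases held one.
Cstf3-201: gaaaggAATAAAaggacctcaaaaacatgc
Cstf3-202: caagaaAATAAAgctttgttaatacgttgt
Cstf3-206: tgcaacaacATTAAAacagtttcaatggtg
Pcf11-201: tacagtATTAAAacttgtgattttttttcc
Pcf11-205: aaaatttgtgAATAAAacatataaaatatg
Cpsf6-201: tcttgtattgaaAATAAAaacaaagttttg
Cpsf6-208: aaatggAATAAAtggactaagaagtacttc
Cpsf7-201: aaattgtgtAATAAActtgatgacgatgtc
Cpsf7-202: agctcttaagttcaacacccaataccacat
Cdk12-203: gtaagcatgtttacatgaatatttttgtgt
Cdk12-201: aaagctaatacactcatatgtcttgattca
Cdk12-206: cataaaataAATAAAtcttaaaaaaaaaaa

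The first transcript of each gene is a full-length one. The printed window of Cstf3-201 lay at chr2:104665399-104665428 on the plus strand, and those of the intronic ends of Cstf3-202 and Cstf3-206 at chr2:104611374-104611403 and chr2:104609400-104609429. All 3 Cstf3 ends held a signal, ATTAAA in Cstf3-206 and AATAAA in the other two. Pcf11, on the minus strand, was read at chr7:92643549-92643578 with ATTAAA and, for the intronic Pcf11-205, at chr7:92668184-92668213 with AATAAA. Cpsf6, also on the minus strand, held AATAAA at its full-length end at chr10:117344673-117344702 and at the intronic end of Cpsf6-208 at chr10:117353808-117353837. In Cpsf7, on the plus strand, the full-length end at chr19:10547624-10547653 held AATAAA, and the retained-intron transcript Cpsf7-202, which ended at chr19:10538811-10538840, held neither hexamer. In Cdk12, on the plus strand, Cdk12-201 ends in the last intron of Cdk12-203, and Cdk12-206 alone of the 3 held AATAAA, at chr11:98278475-98278504, while Cdk12-203 at chr11:98251535-98251564 and Cdk12-201 at chr11:98246675-98246704 held neither. Of 48042 protein-coding transcripts with a complete annotated end, 49.3% held AATAAA and 14.4% ATTAAA in the same 50 bases, and of 21504 retained-intron transcripts 17.4% and 6.05%. The hexamers were looked for on the transcript strand only, and no match says only that these letters were not in the window.

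Most members were higher in Ag+Costim than in Ag, but none passed the test across all genes. The fitted log2 fold change was above 0 for 29 of 31 members, compared with 37.7% of the 24262 genes tested and 75.6% of the 8626 genes that averaged 10 CPM or more, as 30 of the members did. Their median was 0.40, against 0.24 over those 8626 genes and −0.32 over all genes tested. With edgeR's quasi-likelihood test and Benjamini-Hochberg (BH) adjustment, 0 members and 0 of all genes (0%) were called at 0.05. At an unadjusted p under 0.05 stood 18 members, all higher, against 7.89% of all genes and 20.2% of genes at 10 CPM or more that were higher at this p. DESeq2 called 7 members, all higher (Cpsf1, Sympk, Cstf2, Cstf3, Papola, Pabpc4 and Xrn2), against 1.79% of the 43372 genes to which it gave an adjusted p and 8.27% of genes at 10 CPM or more. limma voom with library weights called 22 higher and 2 lower, against 57.1% and 12.2% of those genes. Its weights were 0.0985 and 0.0654 for Ag replicates 2 and 5, 0.508 to 1.86 for Ag replicates 1, 3 and 4, and 1.68 to 3.52 for Ag+Costim, so its Ag level rested mostly on Ag replicates 1, 3 and 4.

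For 10 members the lowest Ag+Costim library exceeded the highest Ag library. These were Cpsf1, Sympk, Cstf2, Cstf3, Cpsf6, Cpsf7, Papola, Pabpc1, Xrn2 and Ccnk, or 32.3% of the members, against 4.48% of all genes and 11.3% of genes at 10 CPM or more. No member lay below throughout (1.13% of all genes). Leaving out Ag replicates 1 and 4, a choice made after the libraries had been examined, gave 12 such members against 17.5% of genes, and leaving out Ag replicates 1, 3 and 4 gave 15 against 23%. The latter, with 2 Ag libraries, also gave edgeR calls for 8 members that were higher (Cpsf1, Sympk, Cstf3, Cpsf7, Papola, Papolg, Pabpc1 and Ccnk) and 2 that were lower (Nudt21 and Ssu72), against 10.8% of genes called. In bulk RNA, fewer cells with a transcript and less of it per cell cannot be told apart.

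**Figure D1:**
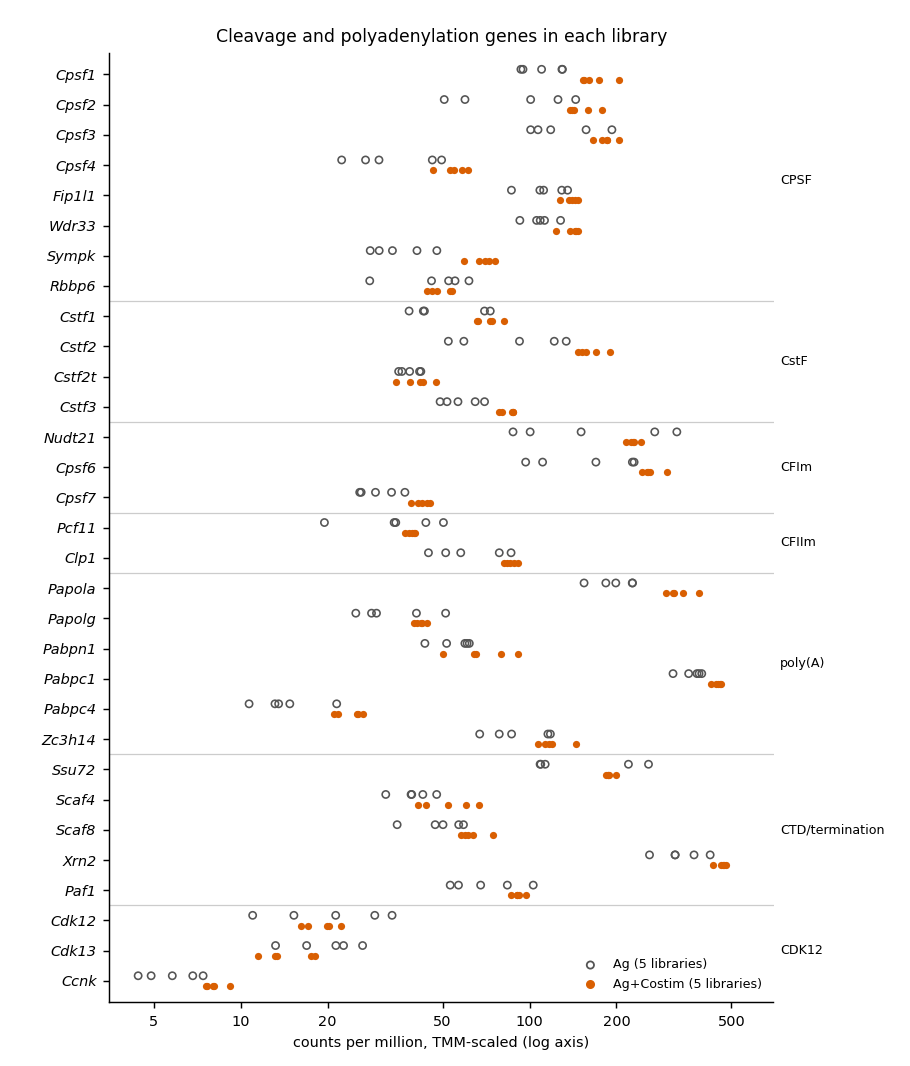
Level of the 31 members in each library, as TMM-scaled CPM on a log axis, with 5 Ag libraries as open grey circles and 5 Ag+Costim libraries as filled orange circles. The orange points lie to the right of all grey points for 10 members, and for most others the grey points spread over a wider range.

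The scale of the counts bears on the size of these differences. The members' median log2 fold change was 0.40 with TMM factors, 0.27 with DESeq2 size factors, 0.17 with upper quartile factors and 0.14 with total counts, while the median of the genes at 10 CPM or more was 0.24, 0.12, 0.02 and 0.00. The fold change was above 0 for 29 members with TMM factors and for 25 or 26 with the others, and its direction was the same under all 4 scalings for 27. It turned to lower for Rbbp6, Cstf2t and Pcf11 under each of the other three and for Papolg under upper quartile factors and total counts.

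**Figure D2:**
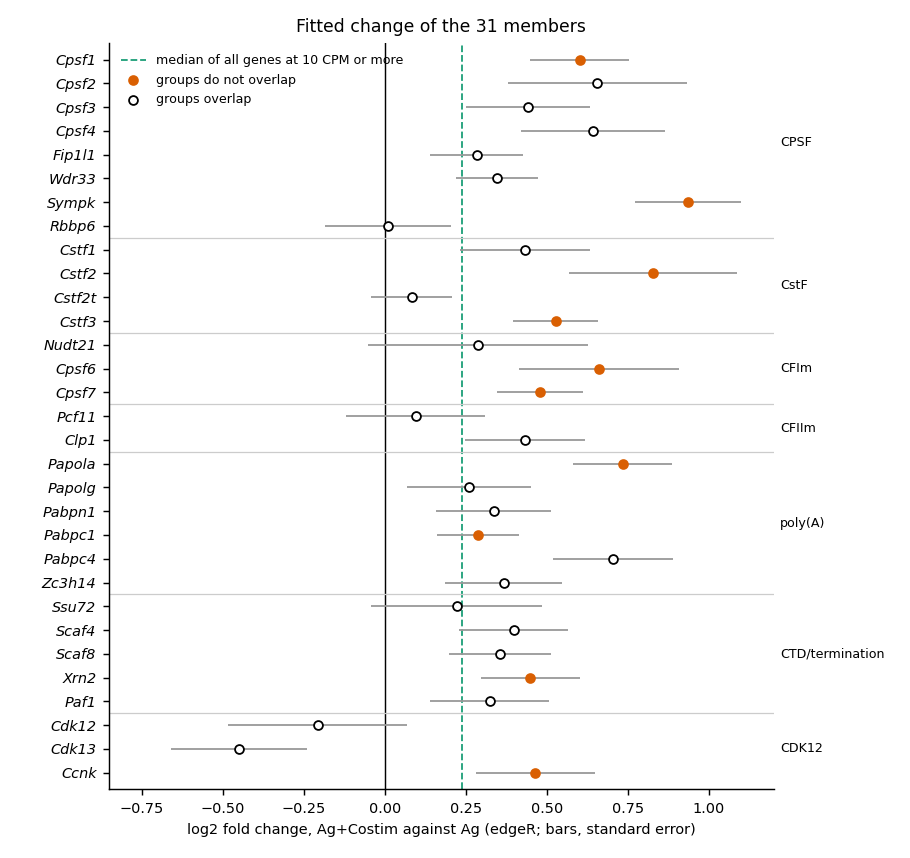
Fitted log2 fold change of each member, Ag+Costim against Ag, with its standard error as a bar and TMM scaling. Filled points are the 10 members whose groups do not overlap, open points the other 21, and the dashed line marks the median of genes at 10 CPM or more at 0.24.

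Of the 8 CPSF genes and partners, all were higher in Ag+Costim under TMM scaling (median log2 fold change 0.52), though Rbbp6 was lower under the 3 other scalings, and Sympk and Cpsf1 had groups without overlap. Symplekin, encoded by Sympk, is the scaffold that joins CPSF to CstF. It measured 30.2, 33.5, 47.8, 40.8 and 28.1 CPM across Ag replicates 1 to 5 and 59.4, 70.4, 67, 75.7 and 72.2 CPM across Ag+Costim replicates 1 to 5. The lowest Ag+Costim library was thus above the highest Ag library, and the log2 fold change of 0.94 ± 0.16 (SE) was the largest of the members, with an edgeR adjusted p of 0.134, the lowest among them.

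Cpsf1 encodes the largest CPSF protein, which holds the subunits that read the hexamer. Its CPM were 93.4, 94.9, 130, 110.1 and 129.5 in Ag and 153, 155, 174, 161 and 204 in Ag+Costim, again without overlap. The log2 fold change was 0.60 ± 0.15 (edgeR adjusted p = 0.169). An exon of Adck5 overlaps this gene on the other strand, and the libraries did not record strand.

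The signal itself is read by Wdr33 and by Cpsf4, a zinc finger protein. Wdr33 measured 92.6, 106, 109, 113 and 128 CPM across Ag and 124, 138, 144, 147 and 145 CPM across Ag+Costim, and only the highest Ag library reached into the Ag+Costim range. Cpsf4 measured 22.4, 46.1, 30.1, 27 and 49.6 CPM across Ag and 52.9, 46.3, 58.2, 54.8 and 61.2 CPM across Ag+Costim, so that Ag replicates 2 and 5 were near the Ag+Costim level and the other three were lower. Their log2 fold changes were 0.35 ± 0.13 and 0.64 ± 0.22.

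The endonuclease Cpsf3 and its inactive relative Cpsf2 had the same layout. Cpsf2 was at 50.7, 126, 101, 59.8 and 145 CPM in Ag, with replicates 1 and 4 lowest, and at 138, 141, 142, 178 and 159.5 CPM in Ag+Costim (log2 fold change 0.66 ± 0.28). Cpsf3 ranged from 101 to 193 CPM across Ag and from 166 to 204 CPM across Ag+Costim. Fip1l1, which tethers poly(A) polymerase to CPSF, ranged from 86.6 to 136 CPM and from 128 to 147 CPM. These 3 genes overlapped between groups, with edgeR adjusted p from 0.265 to 0.287.

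Rbbp6, a partner that activates the endonuclease, did not follow the others. It measured 55.2, 52.5, 45.8, 61.7 and 28 CPM across Ag and 45.9, 54, 52.9, 47.8 and 44 CPM across Ag+Costim, with Ag replicate 4 the highest of all 10 libraries and Ag replicate 5 the lowest. Its log2 fold change was 0.01 ± 0.19 with TMM factors and −0.33 with total counts.

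In CstF, the RNA-binding subunit Cstf2 had the second largest log2 fold change of the set, 0.83 ± 0.26 (edgeR adjusted p = 0.222). It stood at 52.3, 122, 92.3, 59.2 and 134 CPM across Ag and 153, 157, 147, 190.3 and 169.5 CPM across Ag+Costim. The groups did not overlap, and within Ag replicates 2 and 5 were nearest to the Ag+Costim libraries and replicates 1 and 4 farthest from them. Nox1 overlaps the gene on the other strand.

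The paralog Cstf2t, an intronless copy that lies within Prkg1 on chromosome 19, varied little. Its CPM were 38.4, 36.1, 42, 41.6 and 35.2 in Ag and 38.5, 34.4, 42.8, 47.6 and 41.6 in Ag+Costim, with overlapping ranges and a log2 fold change of 0.08 ± 0.12. Cstf3, the scaffold that dimerises the complex, measured 51.8, 69.9, 49, 56.5 and 64.8 CPM across Ag and 87, 78.4, 80.6, 87.7 and 87.5 CPM across Ag+Costim. All Ag+Costim values exceeded all Ag values, and the log2 fold change was 0.53 ± 0.13 (edgeR adjusted p = 0.169). Cstf1, the third subunit, ranged from 38.3 to 73.1 CPM across Ag and from 65.6 to 81.4 CPM across Ag+Costim.

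CFIm consists of the UGUA-binding subunit Nudt21 and a larger subunit, either Cpsf6 or Cpsf7. Cpsf6 was at 97, 227, 169.8, 111 and 230.3 CPM across Ag and 262, 258, 246, 299 and 256 CPM across Ag+Costim, without overlap (log2 fold change 0.66 ± 0.25, edgeR adjusted p = 0.25). Cpsf7 was at 33.3, 26.1, 29.3, 37 and 25.8 CPM across Ag and 42.3, 41.1, 38.8, 45.1 and 44 CPM across Ag+Costim, also without overlap (log2 fold change 0.48 ± 0.13, edgeR adjusted p = 0.198). Within Ag the pair was ordered differently, since replicates 1 and 4 were the lowest for Cpsf6 and the highest for Cpsf7.

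Nudt21 had the widest spread of the set in Ag. It measured 87.7, 272, 151, 101 and 324 CPM across Ag and 216, 225, 229, 243 and 229.7 CPM across Ag+Costim, so Ag replicates 2 and 5 exceeded every Ag+Costim library and Ag replicates 1 and 4 were below each of them. The fitted log2 fold change was 0.29 ± 0.34 and turned to −0.11 without Ag replicates 1 and 4.

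In CFIIm, Pcf11 and the RNA kinase Clp1 differed. Pcf11, which binds the polymerase tail and releases the polymerase, measured 43.7, 34, 34.4, 50.3 and 19.5 CPM across Ag and 39.8, 39.2, 38.1, 37.1 and 40.2 CPM across Ag+Costim. The Ag+Costim values all fell inside the Ag range, and the log2 fold change was 0.10 ± 0.22. Clp1 ranged from 44.7 to 86.3 CPM across Ag and from 81.5 to 91 CPM across Ag+Costim (log2 fold change 0.43 ± 0.18).

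Among the poly(A) polymerases and poly(A)-binding proteins, Papola and Pabpc1 had groups that did not overlap with TMM factors. Papola encodes the main nuclear poly(A) polymerase. It stood at 155, 227, 227, 184 and 199 CPM across Ag and 316, 313, 297, 385 and 339 CPM across Ag+Costim. Even the lowest Ag+Costim library was well above the highest Ag library, and the log2 fold change was 0.73 ± 0.15 (edgeR adjusted p = 0.141).

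Its paralog Papolg ranged from 25 to 51.2 CPM across Ag and from 39.9 to 44.2 CPM across Ag+Costim. The cytoplasmic poly(A)-binding protein gene Pabpc1 measured 356, 380.2, 314, 387 and 395 CPM across Ag and 426, 443, 458, 461 and 449.7 CPM across Ag+Costim, a small difference without overlap (log2 fold change 0.29 ± 0.13, edgeR adjusted p = 0.268). With upper quartile factors its log2 fold change was 0.05 and with total counts 0.007. Pabpc4, a related gene induced in activated T cells, measured 13.1, 21.5, 10.7, 13.5 and 14.8 CPM across Ag and 21.1, 21.6, 25.2, 25.5 and 26.6 CPM across Ag+Costim. Only Ag replicate 2 reached the Ag+Costim range, and the log2 fold change was 0.71 ± 0.19 (edgeR adjusted p = 0.189).

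Nuclear tail length is set in part by Pabpn1 and opposed by Zc3h14. Pabpn1 ranged from 43.4 to 61.9 CPM across Ag and from 50.2 to 91.1 CPM across Ag+Costim, and shares exons with the read-through gene Gm20521. Zc3h14 ranged from 67.2 to 118 CPM across Ag and from 107 to 145 CPM across Ag+Costim. The groups overlapped for both.

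Of the 5 factors of the polymerase tail and of termination, Xrn2 alone had groups without overlap. Xrn2 is the exonuclease that degrades the RNA left on the polymerase after cutting. It measured 260.4, 422, 319, 319.6 and 371 CPM across Ag and 479, 461, 431, 469 and 473 CPM across Ag+Costim (log2 fold change 0.45 ± 0.15, edgeR adjusted p = 0.237). The lowest Ag+Costim library was only just above Ag replicate 2.

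The tail phosphatase Ssu72 was at 109, 220.1, 113, 109 and 258 CPM across Ag and 184, 189, 186, 199 and 187 CPM across Ag+Costim, the layout of Nudt21, with Ag replicates 2 and 5 above and Ag replicates 1, 3 and 4 below all Ag+Costim libraries. Its log2 fold change was 0.22 ± 0.26 and turned to −0.05 without Ag replicates 1 and 4. Scaf4 and Scaf8, which restrain early termination, had log2 fold changes of 0.40 ± 0.17 and 0.36 ± 0.16, and the elongation factor Paf1 had 0.32 ± 0.18. Their groups overlapped.

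The CDK12 group phosphorylates the polymerase tail and keeps long genes from being cut early. Cdk12 measured 29.1, 15.3, 21.3, 33.4 and 11 CPM across Ag and 22.2, 20.2, 19.8, 17 and 16.1 CPM across Ag+Costim, with the 2 highest and the 2 lowest values of all libraries in Ag. Cdk13 measured 26.4, 21.3, 16.9, 22.7 and 13.2 CPM across Ag and 13.1, 18.1, 17.5, 11.5 and 13.4 CPM across Ag+Costim. These were the only members with a negative log2 fold change, −0.21 ± 0.28 and −0.45 ± 0.21 (edgeR adjusted p = 0.641 and 0.273), and the former turned to 0.28 without Ag replicates 1 and 4. Cdk12 kept its negative sign under the other 3 scalings, as did Cdk13.

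Their shared cyclin, Ccnk, had the lowest CPM of the members and was higher in Ag+Costim. It was at 7.4, 4.89, 4.41, 6.82 and 5.79 CPM across Ag and 7.56, 7.99, 9.2, 7.65 and 8.07 CPM across Ag+Costim, without overlap, although Ag replicate 1 was close to the lowest Ag+Costim library. The log2 fold change was 0.47 ± 0.18 (edgeR adjusted p = 0.257).

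Averaged over a subcomplex as log2(CPM + 0.5) with TMM factors, 6 of the 7 groups of members separated the conditions, the CDK12 group being the exception. The factors of the polymerase tail and of termination did so narrowly, with at most 6.847 in Ag and at least 6.867 in Ag+Costim. These means were not made with the other scalings. CPSF averaged 5.89, 6.38, 6.28, 6.14 and 6.39 in Ag and 6.63, 6.69, 6.77, 6.82 and 6.81 in Ag+Costim. CFIm averaged 6.05, 6.88, 6.52, 6.23 and 6.97 in Ag and 7.07, 7.07, 7.03, 7.22 and 7.11 in Ag+Costim, with Ag replicates 2 and 5 closest to Ag+Costim and Ag replicates 1 and 4 farthest below. The 28 cell cycle genes averaged 5.80, 8.81, 8.12, 5.87 and 8.93 in Ag and 8.81 to 9.12 in Ag+Costim.

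All 31 members averaged 5.77, 6.16, 5.90, 5.95 and 6.09 in Ag and 6.32, 6.38, 6.44, 6.43 and 6.42 in Ag+Costim, with no overlap. The mean over all genes at 10 CPM or more did not overlap either, at 5.29, 5.82, 5.46, 5.45 and 5.85 in Ag and 5.85 to 5.90 in Ag+Costim. The difference of the group means was 0.43 for the members and 0.30 for these genes. Whether the cell cycle level or the B cell, erythroid and mitochondrial transcripts had a part in these differences was not tested. For 26 of the 31 members the SD of the CPM was smaller in Ag+Costim than in Ag. For how many of all genes this held was not counted. The mean over all 31 members had an SD of 0.158 in Ag and 0.049 in Ag+Costim. The mean over all genes at 10 CPM or more had an SD of 0.247 in Ag and 0.017 in Ag+Costim.

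**Figure D3:**
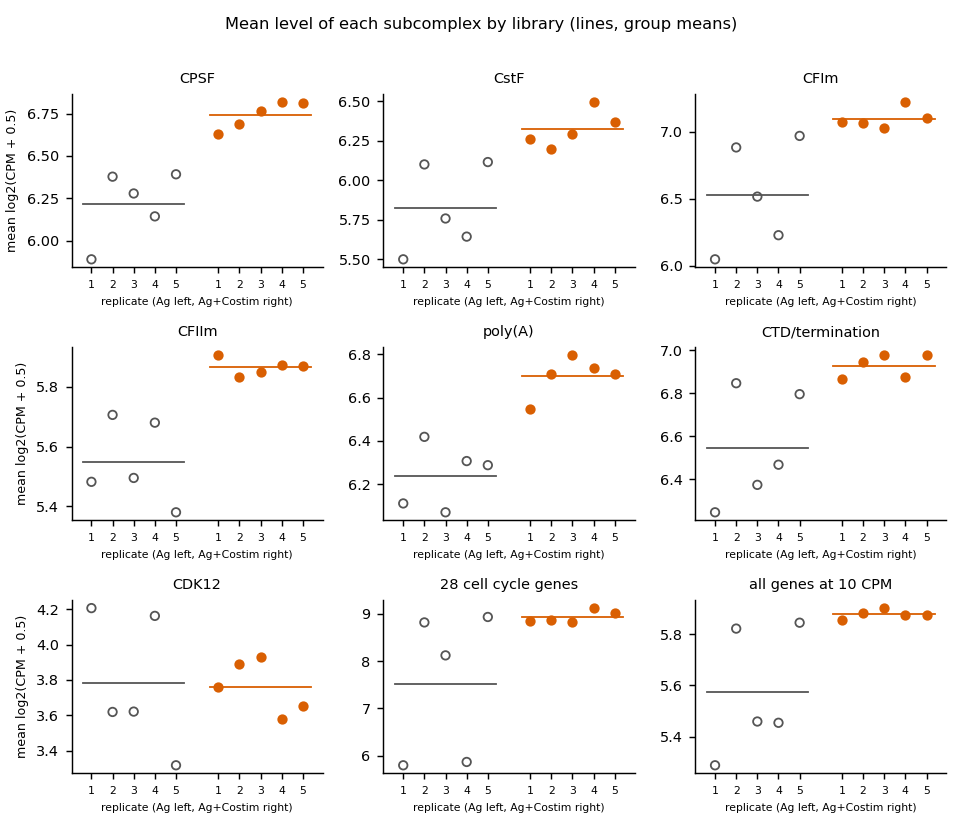
Mean log2(CPM + 0.5) of each subcomplex, of 28 cell cycle genes and of all genes at 10 CPM or more in each library, with open circles for Ag, filled circles for Ag+Costim, lines for the group means and a vertical scale of its own in each panel. The Ag+Costim points spread less than the Ag points in each panel, and the cell cycle levels of Ag replicates 1 and 4, at 5.80 and 5.87, lie apart from the 8.12 to 9.12 of the other libraries.

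Paralogs were compared per length, as the ratio of their TPM, the counts scaled by transcript length and by library total, in each library. Cstf2 over Cstf2t was 1.46, 3.95, 2.24, 1.54 and 4.68 in Ag and 4.46, 4.97, 4.11, 4.76 and 4.73 in Ag+Costim, that is 2.78 ± 1.46 in Ag and 4.61 ± 0.33 in Ag+Costim (n = 5 with the SD, two-sided exact permutation p = 0.032, 0.08 after BH over the 4 pairs). Ag replicate 5 lay within the Ag+Costim range and the other 4 Ag libraries below it. Pabpc1 over Pabpc4 was 26.1, 18.7, 30.2, 29.8 and 27.6 in Ag and 21.2, 22.4, 19.4, 19.5 and 18.2 in Ag+Costim, with Ag replicate 2 inside the Ag+Costim range and the other 4 Ag libraries above it (exact permutation p = 0.04, 0.08 after BH).

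For the CFIm partners, Cpsf6 over Cpsf7 was 2.03, 6.03, 4.25, 2.11 and 6.24 in Ag and 4.33, 4.32, 4.43, 4.54 and 3.96 in Ag+Costim. The means were close and the spread in Ag was 2.04 against 0.216 in Ag+Costim, with 2 Ag libraries above and 2 below the Ag+Costim range (exact permutation p = 0.49). Papola over Papolg was 7.33 ± 2.99 in Ag and 9.08 ± 1.08 in Ag+Costim (exact permutation p = 0.32). Per length, Pabpc1 was the most abundant member (229.7 ± 52.3 TPM in Ag and 245 ± 6.06 TPM in Ag+Costim), followed by Ssu72 (179.8 ± 34.2 TPM in Ag and 201 ± 4.16 TPM in Ag+Costim) and Xrn2 (169 ± 22.1 TPM in Ag and 207 ± 9.46 TPM in Ag+Costim), whose order differed between the groups. At the low end stood Cdk13 (6.62 ± 2.69 TPM in Ag and 3.31 ± 0.845 TPM in Ag+Costim) and Ccnk (3.79 ± 1.59 TPM in Ag and 4.47 ± 0.338 TPM in Ag+Costim), which changed places between the groups.

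**Figure D4:**
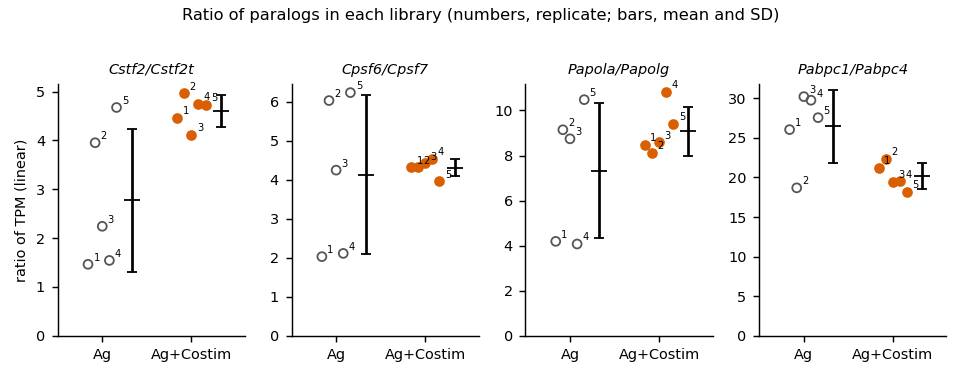
Ratio of TPM of 4 paralog pairs in each library on a linear axis from 0, with the replicate number beside each point and the mean and SD of each group as a bar. In Ag the Cstf2 over Cstf2t ratio runs from 1.46 to 4.68 and in Ag+Costim from 4.11 to 4.97.

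The division of counts among the transcripts of a member changed in no gene that passed the test of transcript usage. Of 29 members with 2 or more transcripts, edgeR's diffSpliceDGE called 0 at a gene-level BH under 0.05 with a share difference over 10 points, against 0.297% of 10441 genes. At an unadjusted p under 0.05 stood 3 members, Zc3h14, Papolg and Pabpn1, against 6.42% of genes, and limma's diffSplice called 1, Cpsf1, against 1.39% of genes. The Cpsf1 transcript with the largest difference, Cpsf1-201, held 85.7% ± 11.2 in Ag and 74.8% ± 2.36 in Ag+Costim of the gene's counts, with overlap.

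Transcripts with intronic ends took a smaller share of the counts in Ag+Costim for most members, as they did for most genes. The intronic-end share, the percentage of a gene's counts on transcripts that end in an intron of its protein-coding transcripts, was lower on average for 13 of 15 members, and the same held for 82.8% of the 4525 genes with this measure. Only Cpsf7 was lower without overlap, as were 3.87% of genes. Cpsf7 was at 6.3, 5.19, 7.22, 5.93 and 3.69% in Ag and 2.5, 2.56, 1.53, 1.55 and 1.53% in Ag+Costim, or 5.67% ± 1.32 in Ag and 1.94% ± 0.547 in Ag+Costim (n = 5 with the SD, exact permutation p = 0.0079, the smallest p that 5 against 5 libraries can give). After BH over all genes it was not past 0.05, nor was any other gene. With no p below 0.0079, a gene could pass only if a far larger share of genes had separated completely. The adjusted outcome therefore could not decide for or against a single gene. Most of it was the retained-intron Cpsf7-202, with 5.21% ± 0.929 in Ag and 1.71% ± 0.598 in Ag+Costim.

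Cstf3 was at 15.4, 7.4, 14.8, 16.9 and 14.2% in Ag and 7.94, 8.08, 8.41, 5.94 and 8.19% in Ag+Costim. Ag replicate 2 lay in the Ag+Costim range, and the other 4 Ag libraries were above it (exact permutation p = 0.04). Of its 2 intronic ends, Cstf3-202 held 9.08% ± 2.95 in Ag and 4.85% ± 0.88 in Ag+Costim, and Cstf3-206 4.47% ± 1.49 in Ag and 2.8% ± 0.55 in Ag+Costim. Cpsf6, mainly through Cpsf6-208, was at 11, 4.27, 7.72, 10.1 and 3.03% in Ag and 2.73, 3.54, 2.65, 2.92 and 2.18% in Ag+Costim, with Ag replicate 5 inside the Ag+Costim range (exact permutation p = 0.016).

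Pcf11, whose intronic end has been described as a brake on its own mRNA, was at 7.05% ± 3.06 in Ag and 5.59% ± 1.63 in Ag+Costim with overlapping libraries (exact permutation p = 0.37). Cstf2 and Sympk were the 2 members with a higher mean in Ag+Costim, at 21.2% ± 8.78 in Ag and 25.4% ± 4.41 in Ag+Costim and at 5.46% ± 3.9 in Ag and 7.64% ± 4.89 in Ag+Costim, both with overlap. For 11 of the 15 members the 3 highest Ag shares were those of replicates 1, 3 and 4. For the non-coding share, described below, this held for 6 of 15 members. How many of all genes had this order was not counted. These libraries had the most genes detected, the highest B cell marker sums and the largest mitochondrial share of the counts, and the part of these in the shares was not tested. For Cpsf7 the values of Ag replicates 2 and 5 were 5.19% and 3.69%, and the highest Ag+Costim value was 2.56%.

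**Figure D5:**
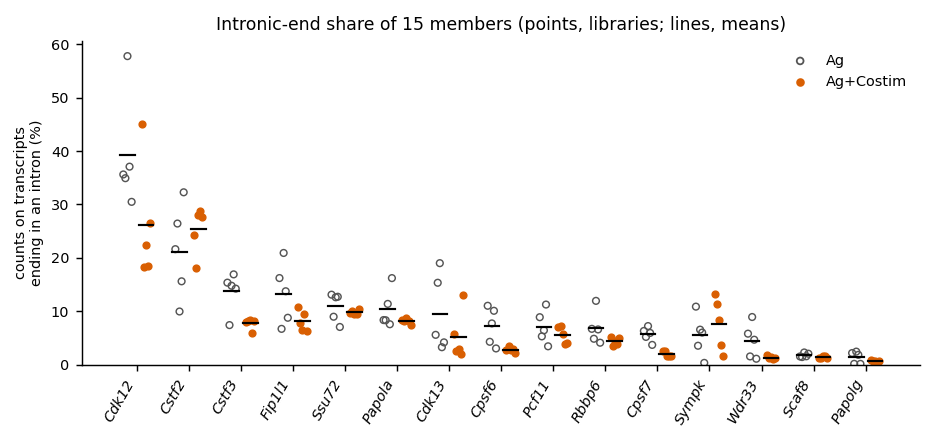
Percentage of counts on transcripts that end in an intron, for the 15 members with the measure, with 5 Ag libraries as open and 5 Ag+Costim libraries as filled circles and the group means as lines. Cpsf7 is the gene whose groups do not overlap. Cdk12 has the highest group means, 39.2% in Ag and 26.2% in Ag+Costim, with libraries from 18.2% to 57.8%. Cstf2, with means of 21.2% and 25.4%, is above it in some libraries.

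The mean position of the annotated 3′ ends weighted by counts, from 0% at the most proximal to 100% at the most distal end, was higher on average in Ag+Costim for 16 of 20 members and lower for 4, against 27% of 6933 genes that were lower. Wdr33 and Cpsf7 were higher without overlap, as were 3.12% of genes. Wdr33 measured 75.3, 76.5, 80.9, 75.7 and 80.3% in Ag and 83.7, 86.5, 88, 87.2 and 88.7% in Ag+Costim (exact permutation p = 0.0079). Its full-length transcript Wdr33-201, with 22 exons, held 75.3% ± 2.71 in Ag and 85.5% ± 2.08 in Ag+Costim of the counts, and Wdr33-205, which has 6 exons and ends far upstream, held 20.2% ± 4.23 in Ag and 13.1% ± 1.9 in Ag+Costim. The end of Wdr33-205 lay within the core exon at chr18:31835384-31835481, so it did not count toward the intronic-end share. Cpsf7 measured 95.5% ± 0.806 in Ag and 97.6% ± 0.379 in Ag+Costim. No gene passed 0.05 after BH, which is subject to the same limit on the smallest p.

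Transcripts without a full reading frame, annotated as retained intron, nonsense-mediated decay or processed transcript, took a smaller mean share in Ag+Costim for 10 of 15 members, against 79.6% of 6210 genes. Cdk12 alone was lower without overlap, as were 3% of genes. Its share was 24.7, 36.2, 34.1, 25.9 and 24.5% in Ag and 21.9, 17.1, 16, 12.2 and 16.9% in Ag+Costim, or 29.1% ± 5.61 in Ag and 16.8% ± 3.47 in Ag+Costim (exact permutation p = 0.0079). Most of it was Cdk12-206, a transcript of 8 exons that ends downstream of the full-length ends, with 23.5% ± 4.45 in Ag and 14.6% ± 2.61 in Ag+Costim. The full-length Cdk12-203 held 31.3% ± 10.3 in Ag and 43.3% ± 6.53 in Ag+Costim, with overlap. Ag replicates 2 and 3 had the highest non-coding share.

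In the authors' table of splicing events, which gives 1 percent-spliced-in (PSI) fraction per group and hence no error, 494 events lay in 29 members at 10 CPM or more. A difference over 0.1 stood out for 7 of them, 3 higher and 4 lower in Ag+Costim, against 3.27% of 100913 events. The 7 included 6 of 40 tandem start segments, against 13.6% of such events, and 1 of 410 core exons, against 0.524%. Of 27 tandem 3′ end segments 0 passed, against 18.4% of 8497. The count was also 0 among 7 alternative acceptors (6.16% of all), 3 alternative donors (8.08%), 5 retained introns (7.91%), 1 alternative first exon (5.25%) and 1 alternative last exon (3.46%).

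The core exon was the 102-base exon of Rbbp6 at chr7:122997596-122997697 (GRCm38, plus strand), whose PSI was 0.381 in Ag against 0.28 in Ag+Costim. From the transcript counts its inclusion was 58.7, 45.9, 68.6, 59.3 and 77.7% in Ag and 56.7, 80.4, 65.4, 75.2 and 67.9% in Ag+Costim, which overlapped and went the other way on average (exact permutation p = 0.33). The tandem starts lay in Cpsf4, with segments at 0.507 and 0.679 and at 0.264 and 0.0903 in Ag and Ag+Costim, in Cpsf6, at 0.891 and 0.996 and at 0.108 and 0.0039, in Pabpc4, at 0.199 and 0.0867, and in Cdk12, at 0.161 and 0.267. For a tandem start, the libraries' counts gave the share on transcripts whose 5′ end lay in the segment. A transcript that began upstream and ran through the segment was thus counted as without it. For the Cpsf6 segment with PSI of 0.891 and 0.996 this share was 6.2% in Ag and 2.45% in Ag+Costim. For 3 of the 7 events the value from the libraries' counts differed in the same direction as the PSI, and none passed 0.05 after BH over the 7 (lowest 0.11). An event alone at the smallest exact permutation p could not have passed either.

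Of 76 further genes of 3′ end processing, chosen for their role, 75 were tested and 68 had a log2 fold change above 0 with TMM factors (55 to 63 with the other scalings), with a median of 0.43. With edgeR 0 were called, 33 were higher and 2 lower at an unadjusted p under 0.05, and DESeq2 called 17 higher and 2 lower. Of the 8626 genes at 10 CPM or more, 75.6% were above 0 with TMM factors, and 20.2% were higher and 243 genes lower at this p. DESeq2 called 8.27% of them higher and 215 genes lower. The other one, Exosc6, had 1 to 4 counts in each Ag library and 1, 409, 526, 1 and 113 in Ag+Costim. Ag+Costim lay above Ag throughout for 17 genes (22.7%, against 11.3% of genes at 10 CPM or more), of which 6 were among the 14 Integrator subunits. Integrator cuts small nuclear RNAs and stalled transcripts. Ints1 measured 45.5 ± 5.87 CPM across Ag and 78.9 ± 8.03 CPM across Ag+Costim (log2 fold change 0.79 ± 0.13), and Ints2 30.6 ± 10.4 CPM across Ag and 53.7 ± 6.27 CPM across Ag+Costim (0.81 ± 0.22).

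Casp8ap2, which acts in histone mRNA processing, measured 59.4 ± 21.2 CPM across Ag and 103 ± 5.35 CPM across Ag+Costim (0.80 ± 0.21). Snrnp70, a protein of the U1 particle, which protects transcripts from early cutting, measured 110.1 ± 23.2 CPM across Ag and 184 ± 16 CPM across Ag+Costim (0.74 ± 0.16). The edgeR adjusted p of these 4 genes were 0.117 to 0.193. The 17 deadenylases and their cofactors were mixed, with 13 above 0 and 4 below. The 2 genes that were lower at an unadjusted p under 0.05 were Pan3, a deadenylase subunit, at a log2 fold change of −0.79 ± 0.26, and Btg1, a cofactor of deadenylation known from quiescent lymphocytes, both chosen after their values were seen. Btg1 stood at 584, 129, 143, 732 and 133 CPM across Ag and 107, 109.8, 158, 56.5 and 74.9 CPM across Ag+Costim. Ag replicates 1 and 4 were far above the other 8 libraries, and the log2 fold change was −1.77 ± 0.56 (edgeR adjusted p = 0.227).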

How the data were processed

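Per the labels and the study's methods, cDNA was made with SMART-Seq v4 and Nextera XT kits, which do not mark strand, and reads were aligned to mm10 with HISAT2 2.1.0, sorted with SAMtools 1.9 and quantified with StringTie 2.1.0. The authors deposited estimated counts per gene and transcript, derived from coverage and rounded, without normalization. The authors' PSI values are a deposited fraction per event and group from Whippet, with libraries pooled. Their columns of PSI difference, probability, complexity and entropy were not used.

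All 55536 gene identifiers matched GENCODE M21. Entries that name no gene held 0.0458% to 0.308% of the counts and were left out. edgeR 4.0.16 (filterByExpr by group with a minimum count of 10, TMM, robust quasi-likelihood) in R 4.3.3 was fitted to the whole table with BH adjustment at 0.05, beside DESeq2 1.42.0 and limma 3.58.1. The scripts were tested on simulated data. CPM are TMM-scaled unless stated, and errors are SD over 5 libraries or the SE of the fit. End shares needed 50 counts on the gene in each library and used two-sided exact permutation tests over 252 relabellings. TPM came from transcript counts and annotated lengths.

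Exons of 13 members overlap another gene, so their counts are uncertain.

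Members, lists and the rule for naming genes were chosen with earlier results of these data known. The rule names members that were called, whose groups did not overlap in a measure, with the 5 largest or 5 smallest fold changes or with a PSI difference over 0.1, and up to 4 other genes without overlap. Alternatives were other scalings, tools, filters, a replicate block and leaving out libraries.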

Additional observations from a re-analysis of the deposited data

How the results depend on the processing

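The number of members called was 0 with edgeR under every scaling, filter and single left-out library, 7 with DESeq2, 24 with limma voom, and 10 without Ag replicates 1, 3 and 4, an alternative chosen after seeing the data. For the other 3′ end genes these counts were 0, 20, 63 and 13, the 20 being the 19 among the 75 tested and Exosc6, which was below the filter on low counts. Of genes at 10 CPM or more, DESeq2 called 8.27% higher and 215 of 8626 lower, and limma voom called 57.1% higher and 12.2% lower. Without Ag replicates 1, 3 and 4, edgeR called 10.8% of the genes tested. The cause of these differences was not tested. Members without overlap numbered 10 with TMM, 6 with DESeq2 size factors, 3 with upper quartile factors and 18 with no filter. Of genes at 10 CPM or more, 11.3%, 7.32%, 3.73% and 25.7% were higher without overlap, in the same order. Scaling by total counts left 7 such members, against 7.28% of these genes. Leaving out 1 library gave 10 to 15 such members, and the matching share of these genes was not counted. That range therefore cannot tell whether the members differed from other genes. Without Ag replicates 1 and 4 this share was 17.5%, and without Ag replicates 1, 3 and 4 it was 23%. The members' median log2 fold change, 0.40, became 0.14 with total counts, 0.17 with upper quartile factors, 0.74 with no filter and 0.63 with limma voom. It was 0.33 to 0.49 with 1 library left out.

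Of 589 recomputed member fold changes, 559 kept their direction. Rbbp6, Cstf2t and Pcf11 turned to −0.147, −0.063 and −0.068 with DESeq2 size factors, to −0.33, −0.23 and −0.26 with total counts, to −0.25, −0.17 and −0.17 with upper quartile factors, to −0.136, −0.052 and −0.056 in DESeq2's test and to −0.222, −0.016 and −0.203 with limma voom. Papolg turned to −0.084 with total counts, −0.004 with upper quartile factors and −0.049 with limma voom. Cdk12 turned to 0.11 with no filter. With 1 library left out, Rbbp6 ranged from −0.12 to 0.12, Pcf11 from −0.043 to 0.25 and Cdk12 from −0.35 to 0.004. Without Ag replicates 1 and 4, Nudt21, Ssu72 and Cdk12 turned to −0.115, −0.054 and 0.285, and without Ag replicates 1, 3 and 4 to −0.35, −0.31 and 0.56.

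Transcript usage was called in 1 member by limma's diffSplice, against 1.39% of genes. Of the members' intronic-end and distal-end measures 3 did not overlap, 2 of them in Cpsf7 (8.57%, against 3.85% over all genes), and 3 to 6 with 1 library left out. The 6 without Ag replicate 2 were 17.1% against 8.32%, the 5 without Ag replicate 5 were 14.3% against 13.5%, and the 7 without Ag replicates 1, 3 and 4 were 20% against 22.7%. For the non-coding share the number was 1, 1 to 2 with 1 library left out (2 without Ag replicate 2, 13.3% against 7.34%) and 2 without Ag replicates 1 and 4 or 1, 3 and 4 (13.3% against 6.8% and 14.3% against 22.1%). PSI events numbered 17 of 494 at 0.05, where 6.93% of all events passed, and 0 at 0.2, where 1.1% did.

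In the labels, samples with the same replicate number share only that number. Their deviations from the group means correlated at 0.25, 0.13, −0.10, −0.30 and 0.12. Samples with different numbers were not compared in this way, so whether the libraries were paired was not decided. With a replicate block, 0 members, 0 other genes and 0 members by transcript usage were called, and the members' median was 0.47. Depth in reads was not known, so no counting error could be given.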

Other observations

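None of the 100 groups of 5 values examined, which were the members' CPM, the paralog ratios, the end measures without overlap and the subcomplex means in Ag and in Ag+Costim, held a library whose gap to its nearest neighbour exceeded 0.71 of the group's range.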
